A study of Mus musculus with 12 samples.

Results

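The pseudouridine map of old blood stem and progenitor cells was read from reverse-transcription stops in transfer RNA (tRNA). Stops were compared between 3 libraries of RNA treated with CMC and 3 libraries of RNA kept in the same BEU buffer without it. A site was 1 base of 1 tRNA entry, and its stop rate was the share, in percent, of the reads over that base that ended at it. All sites with coverage of at least 20 reads in each of the 6 old libraries were taken, and entries holding identical values were counted once. This gave 10243 sites in 188 tRNAs, of 28302 rows deposited for the old cells over 404 tRNA entries. Of the rows deposited, 342 held no base. The 404 entries held 213 distinct sets of values with 14012 bases, and 25 of these 213 tRNAs had no site that passed. T stands for uridine and for pseudouridine in the tables, and 2241 of the 3129 T bases passed.

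The old cells were hematopoietic stem and progenitor cells of mice labelled wildtype. The labels give neither the age nor the sex of the animals, and they do not say whether the 3 libraries of a treatment came from separate animals. The p-values therefore compare these libraries, whose spread may be technical. RNA under 200 nt from both treatments had been demethylated with wild-type AlkB and its D135S mutant before the BEU step. Both treatments then went through sodium carbonate buffer. The tables hold tRNA alone, so markers of the cell type could not be checked. The other 6 of the 12 libraries came from young cells and entered only 1 alternative fit.

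Pseudouridine is an isomer of uridine made by pseudouridine synthases, each of which acts at known positions of tRNA, where it stabilises the folded molecule. CMC, a carbodiimide, binds uridine, guanosine and pseudouridine, and mild alkali removes it from all but pseudouridine, where the adduct halts reverse transcriptase. Methyl groups that also halt the enzyme are partly removed by AlkB. Reverse transcriptase copies tRNA from its 3′ end, so a read counted at a base had already passed the bases 3′ of it.

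The tRNAs below show where CMC-dependent stops lay. Each is printed 5′ to 3′ as deposited, with the T bases called higher with CMC in capitals (the call is defined below). Each has the most called T bases of its amino acid, and they are followed by the initiator tRNA, which had none. The calls behind many capitals depend on 1 replicate. Without replicate 2 every capital of Arg-ACG-3-1 lost its call. Its rises at T27, T50, T54 and T55 were then 23.8, 41.7, 67.2 and 45.3 points, against 24.9, 42.3, 68.0 and 47.0 with all 3. Their edgeR adjusted p then lay between 0.0583 and 0.125. Its T39 went from 10.3 to 8.52 points, under the threshold. Some capitals of Cys-GCA-2-1, Gln-CTG-2-1, Leu-TAG-3-1, Trp-CCA-5-1 and Val-AAC-1-1 also lost their calls without replicate 2.
Arg-ACG-3-1: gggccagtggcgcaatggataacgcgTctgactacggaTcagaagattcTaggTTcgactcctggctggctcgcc
Cys-GCA-2-1: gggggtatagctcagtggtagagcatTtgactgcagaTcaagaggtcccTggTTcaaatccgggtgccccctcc
Gln-CTG-2-1: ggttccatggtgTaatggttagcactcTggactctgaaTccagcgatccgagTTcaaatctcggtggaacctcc
His-GTG-2-1: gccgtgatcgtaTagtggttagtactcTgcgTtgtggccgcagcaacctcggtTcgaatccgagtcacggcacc
Leu-TAG-3-1: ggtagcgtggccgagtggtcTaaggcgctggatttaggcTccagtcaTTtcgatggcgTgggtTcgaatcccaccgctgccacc
Trp-CCA-5-1: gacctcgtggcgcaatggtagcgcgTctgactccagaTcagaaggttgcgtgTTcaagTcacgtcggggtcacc
Val-AAC-1-1: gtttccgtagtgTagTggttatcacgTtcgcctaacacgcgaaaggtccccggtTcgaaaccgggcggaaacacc
iMet-CAT-1-1: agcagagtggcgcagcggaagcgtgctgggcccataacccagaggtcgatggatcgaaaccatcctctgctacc

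Depth was taken as the sum, over the 213 tRNAs, of the coverage at the best covered base. It was 533736 to 1061426 reads per BEU library, against 218695 to 510898 per CMC library. The median coverage of a tested site was 5944, 1655 and 1405 reads in BEU libraries 1 to 3 and 280, 162 and 495 in CMC libraries 1 to 3. Coverage had a ceiling that many tRNAs reached, and between 21 and 103 of the 213 tRNAs per BEU library, and between 0 and 23 per CMC library, had a base with at least 7500. Sites were counted as below this ceiling if no base from the 5′ end up to the site had 7500 reads or more in any of the 6 libraries, which held for 5454 sites and 1235 T sites. At called T sites at the ceiling the median stop rate of BEU library 1, the deepest, was 0.210%, against 1.02% and 1.07% in the other BEU libraries. At called T sites below it the 3 BEU medians were 1.28%, 1.45% and 1.69%. Near-identical tRNAs share reads in a way the tables do not show, so neighbouring entries of 1 family are not independent.

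CMC raised stops mainly at T. A site was called higher when the mean rise over 3 replicate numbers was at least 10 percentage points, all 3 rose, and the Benjamini-Hochberg adjusted p of edgeR's quasi-likelihood test over all 10243 sites was under 0.05. Of these sites 480 (4.69%) were called higher and 21 (0.205%) lower. Because a call requires such rises, the gaps between treatments stated below for called sites are no further evidence. Among T sites 433 of 2241 (19.3%) were called higher, and among A, C and G sites 47 of 8002 (0.587%). Of the 241 sites with a mean rise of at least 30 points, 235 were T, 4 were C and 2 were G. The median stop rate of the 433 called T sites was 0.590%, 1.24% and 1.31% in the 3 BEU libraries, and 33.6%, 34.7% and 30.8% in the 3 CMC libraries. Their median rise was 31.1 points, with a range of 10.0 to 85.1 and a median SD over 3 replicates of 3.05 points. At 394 of the 433 the mean BEU stop rate was under 5%. Across all T sites the medians were between 0.442% and 1.42% in the BEU libraries and between 4.66% and 5.53% in the CMC libraries. Without replicate 2 the test called 323 sites higher, and 310 T sites.

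**Figure D1:**
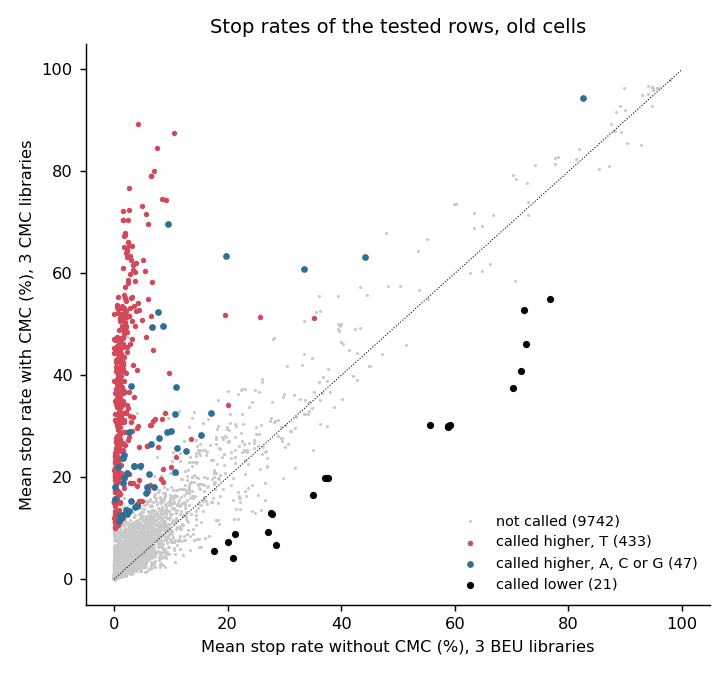
Mean stop rate without CMC (x axis, percent, 3 BEU libraries) against mean stop rate with CMC (y axis, percent, 3 CMC libraries) for the 10243 tested sites; the dotted line marks equal rates. The 433 called T sites rise steeply from the left edge, with a median of 1.09% without CMC and 32.8% with it, while the 21 sites called lower lie under the line.

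The rises did not lie evenly along the tRNA. Of the 433 called T sites, 182 (42%) were positions 54 and 55 of the T loop, the loop near the 3′ end named for its ribothymidine and pseudouridine. The anticodon stem and loop, positions 27 to 43, held 181 (41.8%). The D arm with position 13 held 34, the variable arm 26, positions 49 to 53 held 5, positions 58 to 60 held 3, and 2 lay elsewhere. These are shares of the calls, and the regions differed in T sites tested. At 54 and 55 182 of 317 tested T sites (57.4%) were called, against 19.3% of all T sites. Calls were 80 of 129 at 27 and 28 and 78 of 93 at 38 and 39. Position 13 had 18 of 28 and the rest of the D arm 16 of 292. The variable arm had 26 of 234, positions 49 to 53 had 5 of 83 and positions 58 to 60 had 3 of 163. Position 33, the uridine that almost every tRNA carries before its anticodon, gave 0 calls among 136 T sites, with rises between -2.47 and 6.70 points. Its median stop rates were 0.230%, 0.765% and 0.837% in the BEU libraries and 2.97%, 3.69% and 2.63% in the CMC libraries. Positions 26, 34 and 36 gave 0 calls among 86 T sites, with a largest rise of 7.44 points. Of the 222 T sites at 26, 33, 34 and 36 together, 209 had a rise under 5 points, falls included. From position 61 to the 3′ end 0 of 323 T sites were called, the medians of all 6 libraries lay between 0.0158% and 0.181%, and few stops were recorded there in either treatment.

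**Figure D2:**
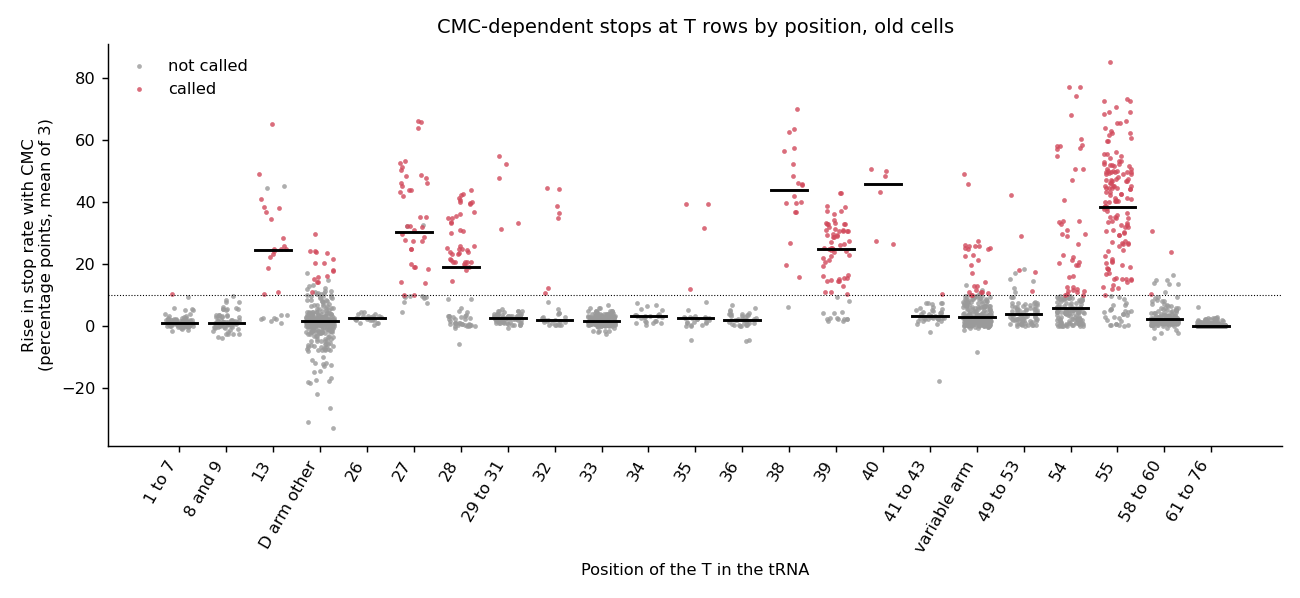
Rise in stop rate with CMC (y axis, percentage points, mean of 3 replicates) for T sites grouped by position in the tRNA (x axis); each point is 1 T site, red where called, the black bar is the group median and the dotted line marks 10 points. Positions 13, 27, 28, 38, 39, 40 and 55 have medians from 19.2 to 45.8 points, while positions 26, 33, 34 and 36 have no called site.

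Position 55 is the most widespread pseudouridine of tRNA, and TRUB1 and PUS10 are the synthases known to make it. It was called in 139 of 167 T sites, with a median rise of 38.5 points, and in 58 of the 75 below the ceiling. The median stop rate over the 167 was 0.402%, 0.877% and 0.942% in BEU libraries 1 to 3 and 39.6%, 42.1% and 33.7% in CMC libraries 1 to 3. The largest rise of any site was at T55 of tRNA-Leu-CAG-4-1. Its stop rate was 3.47%, 4.15% and 4.93% without CMC and 90.9%, 88.7% and 88.1% with it, a rise of 85.1 ± 2.18 points (SD, n = 3; edgeR adjusted p = 6.1e-05). T55 of tRNA-Glu-CTC-2-1, the best covered of the called T sites below the ceiling, had 3.93%, 5.50% and 5.32% without CMC and 74.3%, 76.5% and 68.9% with it. The lowest CMC library stood far above the highest BEU library at both sites.

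Entries with the same anticodon differed at position 55. Over 42 anticodons with at least 2 entries the median range of the rise was 27.5 points, from the smallest entry to the largest. The median SD over 3 replicates was 2.74 points, but a range is an unlike measure that widens with the number of entries. The 4 Leu-CAG entries ranged from 24.3 to 85.1 points and all were called, and 3 of the 4 were at the ceiling. The 2 Glu-CTC entries had rises of 9.26 ± 15.9 and 68.3 ± 4.15 points (SD, n = 3 each), of which the larger was called and the smaller was at the ceiling. All entries were called for 24 of the 42 anticodons, and none for 1.

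Of the 28 T55 sites that were not called, 17 lay below the ceiling, with rises of 0.662 to 9.66 points. In 27 of the 28 all 3 replicates rose, and 23 had an adjusted p under 0.05, so that the size of the rise kept most of them out. The 3 initiator tRNAs, which start translation and whose T loop begins with A in place of T, gave 0 calls. T55 of tRNA-iMet-CAT-1-1 had stop rates of 0.668%, 0.376% and 4.14% without CMC and 8.40%, 6.31% and 5.34% with it (adjusted p = 0.0804; at the ceiling in 4 libraries). The other initiator entries had rises of 6.66 ± 4.54 and 6.77 ± 6.25 points (SD, n = 3). The loop of the initiator reads ATCGAAA over positions 54 to 60. In 5 Ala entries whose loop also begins with A, as ATCGATG, T55 was called in 5 of 5, with rises from 18.4 to 51.7 points.

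Position 54 follows position 55 in the path of reverse transcriptase and is known as ribothymidine in most tRNAs and as a pseudouridine made by PUS10 in some. It was called in 43 of 150 T sites, with a median rise of 5.98 points, and in 23 of the 63 below the ceiling. Median stop rates were 0.274%, 0.916% and 1.01% in the BEU libraries and 6.55%, 7.32% and 6.67% in the CMC libraries. The number called was 24 without replicate 2, and 78 where a rise of 5 points sufficed. T54 of tRNA-Gln-TTG-5-1 had stop rates of 9.0%, 11.1% and 11.4% without CMC and 88.9%, 88% and 85.6% with it, a rise of 77.0 ± 2.86 points (SD, n = 3; edgeR adjusted p = 8.29e-05). T54 of tRNA-Gln-CTG-1-1 had 2.01%, 2.89% and 2.87% without CMC and 76.5%, 80.4% and 73.4% with it. The treatments did not overlap at either Gln site.

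T54 calls differed in number between loop sequences. The T arms below run from position 49 to 65, and their capitals mark T54 and T55 where called.
Gln-TTG-5-1: ccaagTTcaaatctcgg
Thr-TGT-3-1: gcgagTTcaaatctcgc
Trp-CCA-2-1: gcgtgTTcgaatcacgt
Leu-CAG-4-1: gtggaTTcgaatcccac
Gly-CCC-4-1: ccgggTTcgattcccgg
Val-CAC-4-1: cccggttcgaaaccggg
The first pair carry AAAT at positions 57 to 60, a run known to favour PUS10 at position 54. Of 34 T54 sites in the loop TTCAAAT (positions 54 to 60), 22 were called, with a median rise of 21 points. By amino acid these were 8 of 9 Gln, 4 of 4 Pro, 4 of 4 Trp, 3 of 4 Thr and 3 of 13 Cys. Of 39 in TTCGAAT, which differs at position 57, 5 were called, with a median of 3.69 points. At position 55 of the same loops, 32 of 37 sites were called in TTCAAAT and 34 of 39 in TTCGAAT. Over the 116 T54 sites in all other loops 21 were called, with a median of 4.92 points. Other loops held some of the larger rises. T54 of tRNA-Trp-CCA-2-1, in TTCGAAT, had stop rates of 1.31%, 1.56% and 2.31% without CMC and 49.8%, 50.6% and 46.4% with it, a rise of 47.2 ± 2.71 points (SD, n = 3; edgeR adjusted p = 8.64e-05). T54 of tRNA-Arg-ACG-3-1, in TTCGACT, rose from 0.314%, 3.68% and 3.66% to 70.6%, 73.4% and 67.7%, with an adjusted p of 0.00588 by edgeR and of 0.108 without replicate 2. T54 and T55 of tRNA-Val-CAC-4-1 were at most 0.540% in every library, and they were at the ceiling in 2 of the 6.

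T54 was called only where T55 of the same tRNA was called too. Of 150 tRNAs with both sites tested, both were called in 43, T55 alone in 84, neither in 23 and T54 alone in 0. Below the ceiling the counts were 23, 24, 15 and 0 of 62 tRNAs. Most tRNAs had the larger rise at T55, and 21 of the 150 had it at T54, 18 of them with both called. T54 exceeded T55 most in 3 of the 9 Gln entries, by 27.4 to 31.8 points, while in the other 6 the difference was 0.375 to 8.62 points. In tRNA-Gln-TTG-5-1 T55 went from 5.07%, 7.98% and 6.72% to 52.7%, 52.3% and 50.3%. T55 exceeded T54 most in 3 of the 4 Gly-CCC entries. In tRNA-Gly-CCC-4-1 the rise was 73.1 ± 3.52 points at T55 and 12.1 ± 2.85 at T54 (SD, n = 3 each). Its T54 call was lost without replicate 2 (10.4 points, adjusted p = 0.116) or 3 (12.8 points, adjusted p = 0.0792). T54 lies 1 base 5′ of T55, and A, C and G sites 1 base 5′ of any called T also had more stops: 14 of 232 were called, with a median rise of 2.71 points, against 33 of 7770 elsewhere, with a median of 0.748 points. The part of such neighbouring stops in the T54 rises was not tested.

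**Figure D3:**
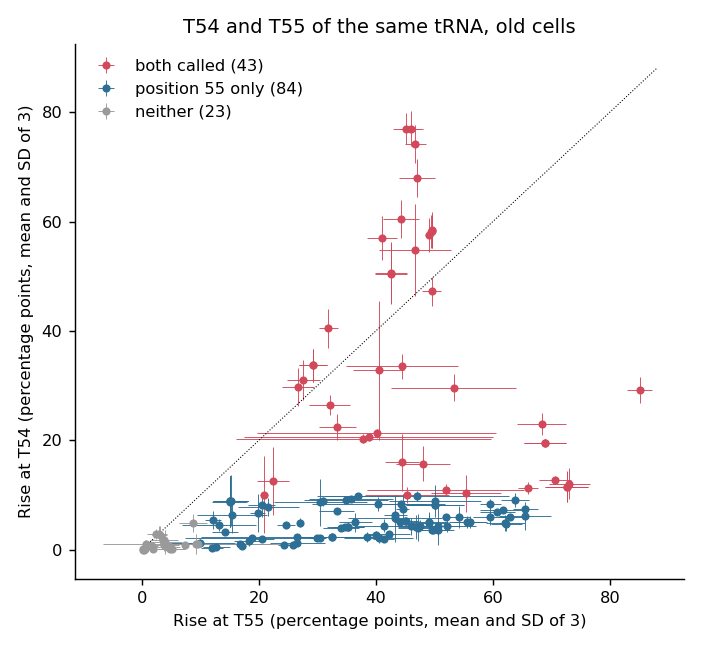
Rise at T54 (y axis) against rise at T55 (x axis) of the same tRNA, in percentage points with SD over 3 replicates, for 150 tRNAs; the dotted line marks equal rises. The 84 tRNAs called at T55 alone lie along the bottom, and 18 tRNAs called at both lie above the line.

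Positions 27 and 28, at the top of the anticodon stem, are the known sites of PUS1. T27 was called in 38 of 50 sites (median rise 30.4 points) and T28 in 42 of 79 (median 19.2 points). Below the ceiling 47 of 73 sites at the pair of positions were called. The median stop rates at T27 were 0.564%, 1.72% and 1.69% in the BEU libraries and 33.4%, 31.7% and 30.5% in the CMC libraries. T27 of tRNA-Ile-AAT-3-1 had 9.16%, 8.46% and 7.74% without CMC and 71.6%, 77.6% and 74.4% with it, a rise of 66.1 ± 3.40 points (SD, n = 3; edgeR adjusted p = 8.29e-05). T27 was called in all 12 Arg, all 5 Val and all 3 Asn sites, in 4 of 6 Trp and in 4 of 12 Cys sites, where most rises that were not called lay just under 10 points.

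T28 was almost all or none by amino acid. It was called in 15 of 15 Cys, 7 of 7 Gln, 4 of 4 Arg, 3 of 3 Asn, 2 of 2 His, 2 of 2 Thr and 8 of 10 Ser sites. It was called in 0 of 8 Val, 0 of 6 Gly, 0 of 5 Ala, 0 of 5 Pro and 0 of 3 initiator sites, and in 1 of 9 Leu sites. These groups also differed in the base next to T28. With T at position 29 all 15 sites were called (all were Cys), with G 24 of 37, and with C 3 of 27. The Cys entries are not independent. T28 rose by 20.6 points in each of tRNA-Cys-GCA-4-1, tRNA-Cys-GCA-16-1 and tRNA-Cys-GCA-17-1. The 6 sites paired with G at position 42 were all Gly and gave 0 calls, while 42 of 72 paired with A were called. T28 of tRNA-Ser-AGA-2-1, the best covered below the ceiling, had stop rates of 1.42%, 1.56% and 2.06% without CMC and 38.9%, 37.3% and 35.4% with it. T28 of tRNA-Arg-CCT-3-1 had 3.55%, 3.56% and 2.41% without CMC and 47.9%, 43.4% and 50.0% with it. The 3 CMC libraries lay above the 3 BEU libraries at both.

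Where T27 and T28 stood side by side, either could be the larger. Of 23 tRNAs with both tested, both were called in 11, T27 alone in 4, T28 alone in 8 and neither in 0. Those called at T28 alone were all Cys-GCA entries, and their T27 rose too. In tRNA-Cys-GCA-7-1 and tRNA-Cys-GCA-8-1 T27 rose by 32.2 and 32.5 points (edgeR adjusted p = 0.0570 and 0.0589), at the ceiling in 1 library. In the rest T27 rose by 9.09 to 9.85 points. Those called at T27 alone were all Val entries, with T28 rises of 3.35 to 5.83 points. In tRNA-Val-AAC-5-1 the stop rate at T27 went from 5.92%, 5.08% and 6.90% to 67.9%, 72.5% and 68.7%, while T28 had 0.995%, 0.426% and 0.808% without CMC and 6.68%, 6.73% and 6.32% with it. In tRNA-Cys-GCA-10-1 the order was the reverse, with rises of 18.9 ± 5.23 points at T27 and 34.9 ± 3.41 at T28 (SD, n = 3 each). Coverage there was as low as 21 reads in a CMC library.

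Positions 38 and 39, the last base of the anticodon loop and the stem base after it, are the known sites of PUS3. T38 was called in 19 of 20 sites, with a median rise of 43.7 points, and T39 in 59 of 73, with a median of 24.9 points. T38 was called in 9 of 9 Ala, 6 of 6 Leu and 4 of 4 Pro sites. In tRNA-Ala-AGC-6-1 its stop rate was 2.50%, 2.27% and 3.10% without CMC and 71.2%, 74.8% and 71.5% with it, a rise of 69.9 ± 2.27 points (SD, n = 3; edgeR adjusted p = 6.1e-05). The exception was T38 of tRNA-Gly-CCC-1-1, with 2.37%, 1.46% and 1.5% without CMC and 8.14%, 8.62% and 6.65% with it. In the same tRNA T39 was called, with 0.637%, 0.375% and 0.331% against 26.5%, 29.5% and 19.2%. T39 was called in all 11 Ser, all 9 Leu and all 6 Trp sites and in 5 of 12 Cys sites. The largest rise at position 39 among called sites below the ceiling was at tRNA-Ser-CGA-2-1, where the CMC rates of 42.9%, 50.0% and 27% spread widely (38.7 ± 12.3 points, SD, n = 3).

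T40, the base after them, was tested in 6 tRNAs, 5 of Ala and 1 of Arg, and all 6 were called, with rises from 26.5 to 50.7 points. In tRNA-Ala-CGC-1-1 T40 had 3.95%, 4.90% and 3.75% without CMC and 56.5%, 51.1% and 54.9% with it. In tRNA-Arg-TCT-1-1 it had 0.943%, 1.09% and 2.06% without CMC and 50.5%, 61.1% and 44.7% with it. All 6 faced G at position 30.

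Calls were few at positions 29 to 32 and 35. At positions 29 to 31 5 of 70 T sites were called, 2 at T30 of Ile entries and 3 at T31 of Met entries. In tRNA-Ile-AAT-3-1 T30 had 5.88%, 5.25% and 5.43% without CMC and 59.3%, 63.2% and 58.7% with it, and the 3 CMC libraries stood above the 3 BEU libraries. At position 32 7 of 31 were called, including 2 of 2 Glu and 2 of 2 His sites and the single Val site, and 0 of 10 Ala sites. T32 of tRNA-Val-TAC-1-1 had 0.659%, 1.14% and 1.24% without CMC and 36.5%, 38.8% and 32% with it. Across the loop, 6 of 11 T32 sites that faced C at position 38 were called, and 1 of 18 that faced T. Position 35, the middle of the anticodon and a known PUS7 site in tRNA-Tyr, was called in 3 of 5 Tyr sites, with rises from 31.7 to 39.3 points. T35 of tRNA-Tyr-GTA-2-1 had 1.13%, 2.05% and 1.69% without CMC and 36.2%, 43.4% and 43.2% with it. Of the other 23 T35 sites 1 was called, in tRNA-Glu-TTC-3-1 (12 ± 3.28 points, SD, n = 3). That call was lost without replicate 2 (10.4 points, adjusted p = 0.159) or 3 (13.6 points, adjusted p = 0.0989).

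**Figure D4:**
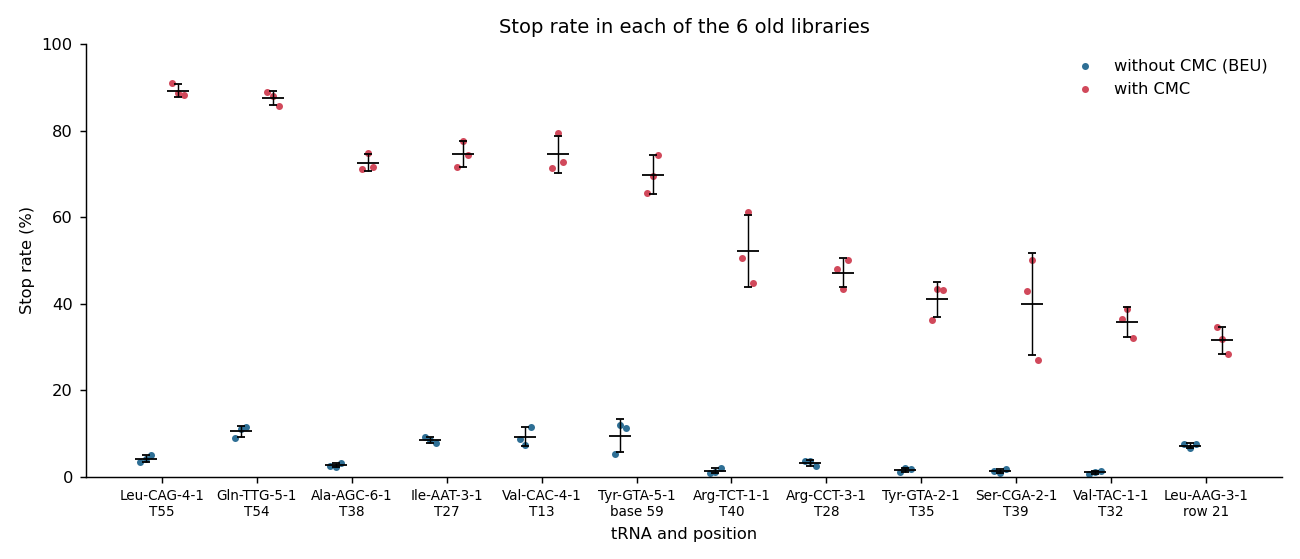
Stop rate (y axis, percent) in each of the 3 BEU (blue) and 3 CMC (red) libraries at 12 called sites (x axis), with the mean and SD of each treatment in black. All red points lie above all blue points of the same site, from 88.1% or more at T55 of tRNA-Leu-CAG-4-1 to 27% or more at T39 of tRNA-Ser-CGA-2-1.

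Position 13 of the D stem is a known PUS7 site, and PUS7 is known to prefer a short motif that holds the target uridine in its middle, followed by A and a purine. T13 was called in 18 of 28 sites, with a median rise of 24.5 points. In tRNA-Val-CAC-4-1 its stop rate was 8.75%, 7.33% and 11.6% without CMC and 71.4%, 79.3% and 72.6% with it, a rise of 65.2 ± 5.89 points (SD, n = 3; edgeR adjusted p = 1.86e-04), at a coverage of at least 29 reads. In tRNA-Gly-CCC-1-1 it was 1.87%, 2.00% and 2.19% without CMC and 37.1%, 37.6% and 35.4% with it. Among amino acids T13 was called in 4 of 4 Val, 3 of 3 Gln, 4 of 6 Glu, 3 of 5 Pro, 2 of 4 Asp, 1 of 2 Gly, 1 of 1 His and 0 of 3 Arg sites. A pair of T13 sites with large rises missed the threshold: tRNA-Asp-GTC-1-1 (45.2 ± 2.13 points, SD, n = 3; edgeR adjusted p = 0.0558) and tRNA-Gly-TCC-1-1 (44.4 ± 1.95 points, SD, n = 3; edgeR adjusted p = 0.0718). Both were at the ceiling in BEU library 1, where their stop rate was 0.0125%, which is 1 stop read, the lowest value in the tables, against 2.76% to 4.79% in the other BEU libraries. They were chosen after their values were seen.

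The motif TNTAA or TNTAG, with the middle T as the site and read on the RNA strand alone, was held by 67 of the 2241 T sites (2.99%). Of these 32 (47.8%) were called, against 401 of 2174 others (18.4%). The motif is shown in capitals in 4 tRNAs where its middle T was called and then in 2 where it was not, and n marks a base that the table leaves out.
Val-CAC-4-1, T13: ntagTGTAGtggt
Leu-AAG-2-1, base 21: gcggTCTAAggcg
Tyr-GTA-2-1, T35: ggacTGTAGatcc
Arg-ACG-3-1, T50: agatTCTAGgttc
Ala-TGC-2-1, T8: gggaTGTAGctca
Thr-AGT-1-1, T33: cctgTCTAGtaaa
The calls lay at certain positions. With the motif, T13 was called in 18 of 25 sites and T35 in 3 of 5. Outside it, T13 was called in 0 of 3. In the D arm 10 of 10 motif sites were called, all at base 21 of Leu entries, counted from the 5′ end, with rises from 14.1 to 24.3 points, while 6 of 282 other D-arm T sites were. At positions 8, 9, 33, 34, 36 and 41 to 43 0 of 25 motif sites were called, with rises from -1.74 to 7.03 points. Base 21 of tRNA-Leu-AAG-3-1 had 7.55%, 6.56% and 7.42% without CMC and 34.5%, 31.8% and 28.3% with it, and its call was lost without replicate 2 (23.9 points, adjusted p = 0.0597). A match to the motif describes the letters and is no evidence of the enzyme.

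In the variable arm, between the anticodon stem and the T stem, 26 of 234 T sites (11.1%) were called, a share below that of T sites at large. Of these 18 were among 61 Leu sites and 7 among 42 Ser sites, the families with a long variable arm, and 1 was an Ile site. At base 47 of tRNA-Leu-CAA-1-1 the stop rate was 6.17%, 7.41% and 4.51% without CMC and 59%, 53.8% and 52.0% with it. At base 49 of tRNA-Leu-TAG-3-1 it was 1.01%, 1.15% and 1.5% without CMC and 46.3%, 53.6% and 41.6% with it. Base 46 of tRNA-Ser-GCT-3-1 had 0.771%, 0.775% and 0.932% without CMC and 32.5%, 24.2% and 28.1% with it. In each of these the 3 CMC libraries stood above the 3 BEU libraries.

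In the T stem, positions 49 to 53, 5 of 83 T sites were called. The largest rise was at T50 of tRNA-Arg-ACG-3-1, with 0.567%, 2.74% and 3.76% without CMC and 44.2%, 46.2% and 43.5% with it (42.3 ± 2.21 points, SD, n = 3; edgeR adjusted p = 0.00455). It was at the ceiling in BEU library 1, and without replicate 2 the rise was 41.7 points with an adjusted p of 0.111. Position 60 of tRNA-Tyr-GTA-5-1 rose by 30.8 ± 3.35 points (SD, n = 3), and this call was lost without replicate 2 (29.7 points, adjusted p = 0.125) or 3 (32.7 points, adjusted p = 0.0654). Of 81 T sites at positions 1 to 7, 1 was called, T7 of tRNA-Ala-AGC-4-1, at 10.4 ± 6.31 points (SD, n = 3). It was lost without replicate 2 (6.83 points, adjusted p = 0.160) or 3 (11.6 points, adjusted p = 0.125).

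The tRNAs differed in how many T sites were called. Of the 188 tRNAs 32 had none, 27 had 1, 42 had 2, 39 had 3, 36 had 4, 11 had 5, and tRNA-Leu-TAG-3-1 had 6. Many had only part of their length covered. Among tRNAs with at least 60 tested bases the counts were 3 with none, 6 with 1, 15 with 2, 23 with 3, 24 with 4, 9 with 5 and 1 with 6. In tRNA-Leu-TAG-3-1, printed above, the rises ran from 11.4 points at T50 and 14.1 at base 21 through 19.7 at base 48, 30.7 at T39 and 45.9 at base 49 to 63.0 at T55. The calls at T50 and base 21 were lost without replicate 2 (adjusted p = 0.119 and 0.221) or 3 (adjusted p = 0.101 and 0.116). The median number of called T sites was 4 in Gln, Leu, Pro and Trp tRNAs, 3 in Arg, Glu, His, Ile, Met, Ser and Tyr tRNAs, and 1 in Ala, Asp, Lys and Thr tRNAs. The 3 initiator tRNAs had none. Their mean rises were at most 4.50 points at T28, 6.77 at T55, 8.66 in the variable arm and 9.22 in the D arm.

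**Figure D5:**
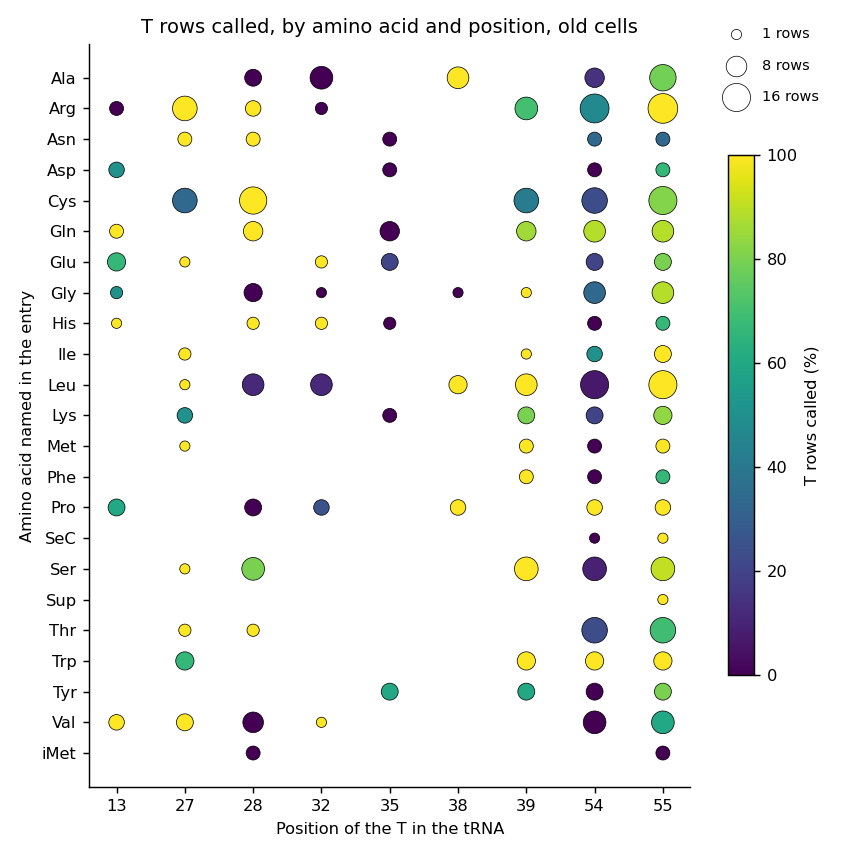
T sites called (colour, percent) by amino acid named in the entry (y axis) and position in the tRNA (x axis); the area of a circle grows with the number of T sites tested, and an empty place had none. Every row but the initiator has called sites at position 55, position 28 is all or none in most rows, and position 54 was called in all 6 Trp and all 4 Pro sites.

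Of the 47 A, C and G sites called higher, 17 were A, 14 C and 16 G. Of their rises 14 reached 20 points and 6 reached 30. In 14 of the 47 (29.8%) a called T stood 1 base 3′, against 2.90% of all tested A, C and G sites. In 9 (19.1%) a called T stood at the same base of a tRNA of the same amino acid and length with at most 6 differences, against 1.52%. A called T stood 1 base 5′ in 3 of the 47, and 24 had none of these neighbours or counterparts. The lines below show such counterparts, with the compared base in capitals and positions counted from the 5′ end.
Arg-ACG-3-1: agattcTaggttcgact
Arg-ACG-1-1: agattcCaggttcgact
Val-CAC-2-1: atcacgTtcgcctcacacgcgaa
Val-CAC-1-1: atcacgCtcgcctcacacgcgag
tRNA-Arg-ACG-1-1 differs from tRNA-Arg-ACG-3-1 by T50C in this stretch. At C50 it had stop rates of 0.594%, 3.27% and 4.23% without CMC and 27.8%, 29.7% and 29.4% with it, against the 43.5% to 46.2% of T50 with CMC. tRNA-Val-CAC-1-1 differs from tRNA-Val-CAC-2-1 by T27C and A43G there. Its C27 had 7.5%, 5.95% and 9.84% without CMC and 53.7%, 63.6% and 39.8% with it, where T27 of tRNA-Val-CAC-2-1 had 0.189%, 2.44% and 2.83% against 53.3%, 53.3% and 52.7%. Coverage at C27 was as low as 55 reads, and its call was lost without replicate 2 (38.1 points, adjusted p = 0.0626). The calls at C50 and at T27 of tRNA-Val-CAC-2-1 were lost without replicate 2 (adjusted p = 0.147 and 0.128) or 3 (adjusted p = 0.0591 and 0.0538). How reads were shared between such pairs was not tested.

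The largest rise outside T was at base 59 of tRNA-Tyr-GTA-5-1. Its stretch is printed with 2 relatives, with base 59 in capitals.
Tyr-GTA-1-1: gctggttcgaAtccggc
Tyr-GTA-4-1: gctggttcgaCtccggc
Tyr-GTA-5-1: gctggttcgaGtccggc
The stop rate at G59 of tRNA-Tyr-GTA-5-1 (A59G against tRNA-Tyr-GTA-1-1) was 5.22%, 12% and 11.3% without CMC and 65.5%, 69.5% and 74.4% with it, a rise of 60.3 ± 2.79 points (SD, n = 3; edgeR adjusted p = 8.71e-04). At C59 of tRNA-Tyr-GTA-4-1 (A59C) it was 4.88%, 10.9% and 10.3% without CMC and 47.7%, 48.2% and 53% with it, a call lost without replicate 2 (42.8 points, adjusted p = 0.0625). At A59 of tRNA-Tyr-GTA-1-1 it was 1.37%, 5.16% and 4.72% without CMC and 9.97%, 10.5% and 11.6% with it. The 2 variant entries thus had CMC rates far above that of the entry with A. T60 beside them was called in both variants, and T55 of tRNA-Tyr-GTA-5-1 had only 2.63%, 4.55% and 1.89% with CMC, at a coverage as low as 22 reads. At so few reads 1 stop, the lowest value deposited, gives a rate of about this size. These T55 rates may therefore stand for no stops. The Tyr values were chosen after they were seen.

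Stops without CMC are the background of the map. The mean BEU stop rate was at least 20% at 230 sites, of which 131 were T and 107 were T in the D arm outside position 13, an arm named for its dihydrouridines. CMC changed the 107 D-arm sites by a median of -1.23 points, with 1 called higher and 12 lower. Of the 230, 6 were called higher and 20 lower, against 480 and 21 of all 10243 sites. A lower call needs a fall of at least 10 points, so it was open only to sites with a mean BEU rate of at least 10%. Position 37 of tRNA-Phe-GAA-2-1, known in tRNA-Phe to carry the bulky wybutosine, had 90.9%, 95.4% and 95.6% without CMC and 95.4%, 95.5% and 94.4% with it. Position 37 of tRNA-Lys-TTT-2-1, also known as a modified adenosine, had 86.5%, 90.6% and 92.5% without CMC and 92.4%, 92.6% and 91.5% with it. G26 of tRNA-Ile-AAT-3-1, at a position known for dimethylguanosine, had 88.3%, 89.9% and 89.1% without CMC and 90.1%, 97.2% and 91.1% with it. The 2 treatments overlapped or nearly met at each of these bases.

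The 21 sites called lower with CMC lay in 15 tRNAs, 18 of them in the D arm, and 14 were T. Among all 10243 tested sites 2241 were T, of which 292 lay in the D arm outside position 13. The 21 are not independent: T16 of tRNA-Ser-GCT-2-1, tRNA-Ser-GCT-3-1 and tRNA-Ser-GCT-4-1 each had a mean CMC rate of 19.8%. Base 19 of tRNA-Ala-TGC-4-1 fell from 66.9%, 71.7% and 72% to 27.7%, 46.4% and 38.4% (edgeR adjusted p = 0.0122). T16 of tRNA-Ser-GCT-1-1 fell from 38.4%, 35.3% and 31.6% to 18.4%, 16.7% and 14.7%. T16 of tRNA-Arg-TCT-1-1 fell from 24.4%, 19.5% and 18.9% to 3.12%, 4.35% and 5.21%. At all 21 the lowest CMC coverage lay between 21 and 49 reads. A coverage minimum of 50 thus removed them all beforehand, and the test then called 0 sites lower. Without replicate 2 or 3 it also called 0, and without replicate 1 it called 33. The lower calls thus rest on sites with under 50 reads in a CMC library.

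The 339 sites whose lowest coverage was 20 to 22 had a median rise of 2.76 points, and the 329 just outside, at 17 to 19, had 2.88 points. Of T sites, 35 with a mean rise of at least 10 points were not called, 21 of them at the ceiling in at least 1 library and 8 not rising in all 3 replicates. The rises of the 3 replicates over the 2241 T sites correlated with each other at r = 0.939 to 0.953, which describes sites that share libraries and tRNAs.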

How the data were processed

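The authors deposited a table for each pair of a BEU and a CMC library, with a row per base of each tRNA entry that gives coverage, stopped reads and stop rate, per the file headers. The deposited coverage values are counts of reads, the stop rate as deposited is in percent, and the authors' stop reads are whole numbers of at least 1, so a base without stops could not be told from 1 stop. The submitters' processing notes name mm10, Bowtie2 2.3.5 and Bowtie without roles. The sources used here do not say how a stop was assigned to a base or how reads were shared between like tRNAs. Usual tRNA positions came from the count from the 5′ end (up to 16), the place of the anticodon (26 to 44) and the T loop (49 and beyond); a base without a usual position is named by its rank from the 5′ end.

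Stop rates were recomputed as stop reads over coverage. Pairs of stopped and read-through counts were fitted with edgeR 4.0.16 in R 4.3.3 (quasi-likelihood test, a term per library, equal library sizes, no dispersion trend), with Benjamini-Hochberg adjustment over all 10243 sites. The rule for calls is given with the first counts, and a lower call mirrors it. Named sites were the called T sites with the largest rise overall and per position, the best covered per position, the largest called A, C and G sites and falls, the highest stop rates without CMC, the flattest T54 and T55 sites, and the most unequal pairs within a tRNA. Other named sites were chosen after their values were seen. The members and lists were chosen with earlier results of these data known. Alternatives used DESeq2 1.42.0 and limma 3.58.1. Some tRNA sequences are not reported here.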

Additional observations from a re-analysis of the deposited data

How the results depend on the processing

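The main fit did not pair libraries by replicate number. The deviations of same-numbered BEU and CMC libraries correlated at -0.047, -0.138 and 0.042, and those of unlike numbers at -0.085 to 0.119. Noise of the read counts also enters these deviations, so they cannot tell whether same-numbered libraries share a source. Each SD of a rise, and the demand that all 3 rose, used differences of same-numbered libraries and so depends on this numbering. With the replicate block 451 sites were called higher, 8 lower, and 417 T sites. Leaving out 1 replicate gave 323 to 511 higher, 0 to 33 lower and 310 to 447 T calls, 12 to 20 at position 13, 61 to 82 at 27 and 28, 60 to 78 at 38 and 39, 24 to 44 at 54 and 111 to 139 at 55, the lowest mostly without replicate 2. A coverage minimum of 10 gave 32 lower calls and 1 of 50 gave 0, with 7 calls at position 13. A minimum of 200 gave 191 higher, 0 lower, 183 T calls, 3 at position 13, 9 at 27 and 28, 23 at 38 and 39, and 24 at 54. A rise of 5 points gave 35 lower and 78 calls at 54, and 1 of 20 points gave 9 lower. All entries counted separately gave 984 higher, 912 T calls, 52 at position 13, 177 at 27 and 28, 150 at 38 and 39, 77 at 54 and 306 at 55. Sites below the ceiling alone gave 292 higher, 241 T calls, 47 at 27 and 28, 44 at 38 and 39, 23 at 54 and 58 at 55, from fewer sites. With 1 subtracted from stop reads and coverage 408 sites were called higher, 385 of them T, and 19 named sites lost their call. DESeq2 called 494 higher and limma on log odds 485. Of 183 named sites 150 were called, of which 65 lost the call without replicate 2, 46 without replicate 3 and 1 without replicate 1. The cause of these shifts was not tested. The CMC libraries had a median of 162 to 495 reads per site, and the part of this depth in the shifts was not tested.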
